A study of Mus musculus with 41 samples.

Results

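A single library of CD106+ fetal mouse lung cells exposed to dexamethasone was compared with the 2 untreated CD106+ libraries, 3 of the 41 samples of the series. CD106 is the surface protein encoded by Vcam1, an adhesion molecule of fibroblasts of the alveolar wall and of activated endothelium. The treated library came from CD106+ cells sorted from mouse lung at embryonic day E18.5, shortly before birth, after 1 mg/kg dexamethasone, a synthetic glucocorticoid. The untreated libraries came from CD106+ cells sorted at E18.5, and their labels name neither a treatment nor a saline injection. A further 2 libraries of untreated CD106- cells at E18.5 served as a second background. The bulk RNA protocol describes an injection of the pregnant dam at E18.5 and harvest 2 hours later, for litters with and without Twist2Cre on a Rosa26mT/mG background, and it does not say whether the CD106+ cells came from such litters or at what time they were taken. The isolation of CD106+ cells after removal of cells with CD45, CD31 or CD309 is described for chromatin accessibility samples of C57Bl/6J lungs and not for the RNA libraries. Mesenchyme sorted by a Twist2Cre reporter from fetal lungs pooled by genotype, 4 pools taken 2 hours after 1 mg/kg dexamethasone and 2 after saline, gave a dexamethasone comparison with no shared control. Nothing in the labels says that the 2 untreated libraries came from separate animals, so their spread may be technical in part.

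Glucocorticoids diffuse into cells and bind the receptor encoded by Nr3c1, which enters the nucleus and binds response elements near genes such as Fkbp5, Tsc22d3 and Per1. Before birth they act on the lung mesenchyme, where loss of the receptor leaves thick, cell-rich septa, and they are given to mothers at risk of preterm delivery to mature the fetal lung. The study asked how glucocorticoid signalling in mesenchyme shapes the lung before birth.

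Levels are in CPM, the count of a gene relative to the sum over all genes of its library. The treated library held 3790544 counts and the untreated libraries 4987175 and 7133941, so that 1 count was worth 0.264, 0.201 and 0.140 CPM. With 1 treated library there is no replicate of the treatment and no test. A gene was called higher or lower where the treated library lay 2-fold or more beyond both untreated libraries on CPM plus 1, and the log2 ratio to the nearer of them is called the distance. Of 11486 genes with 5 CPM or more in the treated library or in the mean of the untreated, 1179 (10.3%) were higher by this rule and 1368 (11.9%) lower. Each count of list members below is to be read beside these 2 shares. Genes under 5 CPM in the untreated mean entered only by being high in the treated library, so their higher calls are a description only. The 2 untreated libraries themselves stood 2-fold or more apart at 1641 genes (14.3%). Against all 4 untreated libraries, CD106- included, 980 genes (8.53%) were higher and 1011 (8.80%) lower, a comparison chosen after seeing the data. The median log2 ratio over these genes was -0.21, and -0.08 or -0.03 where libraries were scaled by TMM or by DESeq2 size factors. Higher genes made 46.3% of the calls, and 54.7% or 57.9% under those scalings.

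**Figure D1:**
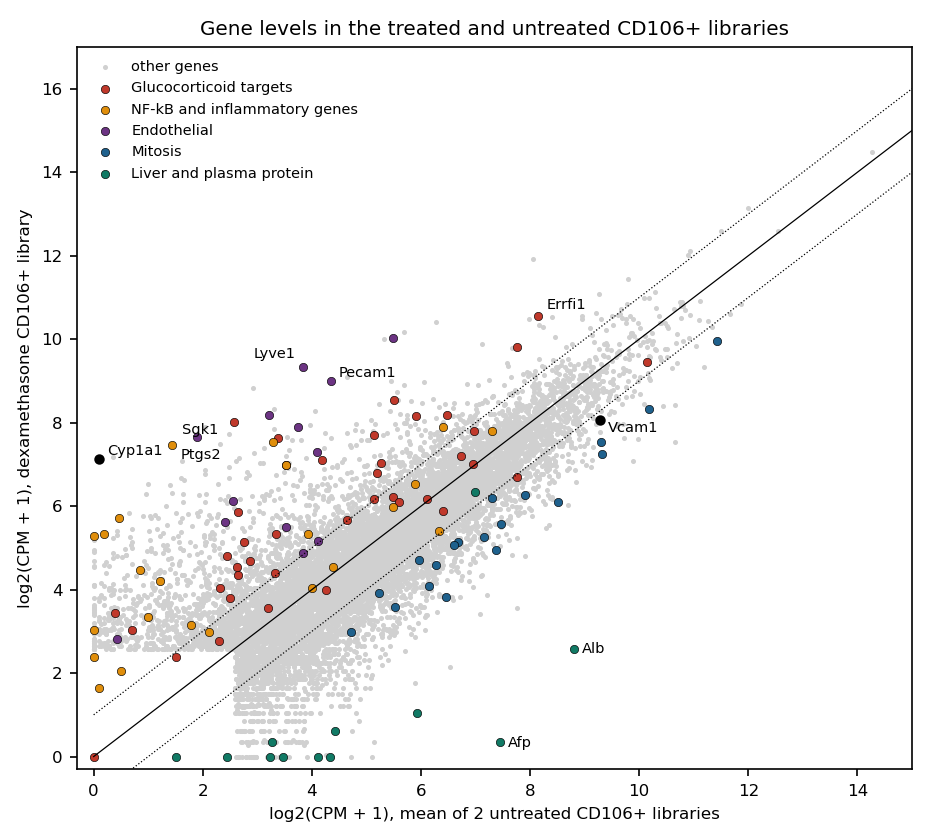
Level of each gene in the treated CD106+ library (vertical axis, log2 of CPM + 1) against the mean of the 2 untreated CD106+ libraries (horizontal axis, same unit), with the line of equality, dotted lines 2-fold to either side and 5 gene lists in colour. Glucocorticoid targets such as Errfi1 and Sgk1, inflammatory genes such as Ptgs2 and endothelial genes such as Pecam1 lie above the band, mitosis genes lie mostly below it, and the plasma protein genes Afp and Alb lie far below.

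The treated library held more endothelial and immune transcripts than either untreated library, and less Vcam1. Vcam1 stood at 268 CPM in the treated library and at 551 and 687 CPM in the untreated ones. It was lower than in both, at a distance of -1.04 that narrowed to -0.99 and -0.98 under the other scalings, and far above the 1.35 and 3.00 CPM of the CD106- libraries. Of 13 endothelial markers, 11 were higher, 0 lower, and the summed level was 3314 CPM against 178 and 153 CPM. The 2 CD106- libraries held 28.1 and 22.1 CPM of them. Pecam1, which encodes the CD31 used elsewhere in the series to remove endothelium, stood at 508 CPM against 22.1 and 16.54 CPM. Kdr, which encodes the VEGF receptor CD309, stood at 238 CPM against 11.8 and 12.9 CPM. Both genes were thus many-fold above the untreated libraries, as was Lyve1, a hyaluronan receptor of lymphatic and some capillary endothelium, at 648 CPM against 18.8 and 7.71 CPM. The endothelial cadherin Cdh5 stood at 1043 CPM against 52.3 and 35.04 CPM and the VEGF receptor Flt1 at 202 CPM against 2.21 and 3.22 CPM. Eng and Prox1, at 35.1 and 28.5 CPM, lay above both untreated libraries by less than 2-fold.

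Immune markers were higher for 7 of 13, with a summed level of 192 CPM against 10.2 and 22.8 CPM, and 20.97 and 15.2 CPM in the CD106- libraries. Only these 7 reached the 5 CPM threshold, so the other 6 could not be called in either direction. Itgam, Ptprc and S100a9 reached it through the treated library alone, which favours a higher call. Itgam, an integrin of myeloid cells, stood at 38.8 CPM against 0 and 0.701 CPM. The pan-leukocyte gene Ptprc, which encodes CD45, stood at 12.9 CPM against 0 and 0.28 CPM, and the neutrophil gene S100a9 at 20.0 CPM against 0.201 and 0.14 CPM. The macrophage genes C1qa and Ms4a7 and the T-cell gene Cd3e had no count in the treated library, where 3 counts would be 0.791 CPM. Erythroid genes summed to 56.9 CPM against 7.90 and 11.2 CPM. The CD106- libraries held 48.5 and 79.2 CPM of them, and Hba-a1, Hba-a2 and Hbb-bs had fractional counts, so their levels are uncertain.

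Fibroblast markers were kept in part. Of 17 matrix fibroblast markers, 2 were higher (Macf1 and Slc7a10) and 2 lower (Pdgfra and Vcam1), with a median log2 ratio of 0.10. Their summed level was 19463 CPM against 9251 and 13933 CPM. Macf1 stood at 9063 CPM against 3992 and 4140 CPM and Mfap4 at 6124 CPM against 1462 and 4359 CPM. These 2 genes gave most of the treated sum, so it describes them more than the other members. The transcription factor Tcf21, which marks lung lipofibroblast precursors, stood at 179 CPM against 36.9 and 123 CPM, and Meox2 at 208 CPM against 127 and 208 CPM. Both stood at or under 1.67 CPM in the CD106- libraries. Pdgfra, the PDGF receptor of alveolar fibroblasts, stood at 171 CPM against 526 and 608 CPM, lower than both untreated libraries. Of 12 myofibroblast markers, 8 were lower and 1 was higher, including the Wnt receptor Lgr6 at 0.264 CPM against 10.4 and 14.9 CPM, the purine receptor P2ry14 at 2.37 CPM against 17.04 and 19.3 CPM and the hedgehog-binding Hhip at 180.2 CPM against 483 and 572 CPM. Against all 4 untreated libraries 3 of the 12 remained lower. The higher myofibroblast marker was Aspn, a small proteoglycan, at 57.5 CPM against 22.7 and 19.9 CPM. Smooth muscle markers were lower for 3 of 12 and higher for 0. Among 10 adventitial fibroblast markers 4 were higher and 1 was lower, among them Cd34, which endothelium also expresses, at 169 CPM against 20.3 and 30.4 CPM.

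Other cell types differed too. Type 2 and distal epithelial markers were lower for 4 of 14 and higher for 2, with Epcam, an epithelial adhesion gene, at 27.4 CPM against 205 and 198 CPM and the lung transcription factor Nkx2-1 at 82.3 CPM against 364 and 269 CPM. Slc34a2, the phosphate transporter of type 2 cells, lay above both instead, at 1299 CPM against 783 and 678 CPM. The higher type 2 markers included Lyz2, at 51.2 CPM against 3.81 and 9.25 CPM, which is on the immune list as well. Against all 4 untreated libraries 1 of the 14 was higher and 4 were lower. Of 10 type 1 epithelial markers 3 were higher, namely the caveolar gene Cav1, which endothelium also expresses, at 944 CPM against 162 and 114 CPM, Clic5 and Rtkn2. Against all 4 untreated libraries 1 was higher, Cav1, with Clic5 and Rtkn2 at distances of 0.03 and 0.16. Liver and plasma protein genes were lower for 9 of 12, and their sum was 86.5 CPM against 551 and 1237 CPM. The CD106- libraries held 63.7 and 141 CPM, and 3 of the 12 were lower than all 4 untreated libraries. Afp, the fetal serum protein, stood at 0.264 CPM, which is 1 count, against 109 and 238 CPM, and Alb at 5.01 CPM against 269.9 and 621 CPM. Cardiac and skeletal muscle genes gave 0 calls among 14, and their sum set the untreated libraries far apart, at 4502 and 153 CPM, with the treated library between them at 561 CPM. All 3 libraries held both Xist and Y-linked transcripts, with Xist at 6172 CPM against 6761 and 5221 CPM and Ddx3y at 112 CPM against 80.2 and 47.5 CPM. The share of Malat1, a nuclear RNA, was 9.03% of counts against 5.40% and 2.69%, and that of the ribosomal RNA precursor Rn45s 2.27% against 1.06% and 2.86%. The same treated library gave these marker differences and every list below, and the part of the markers in each list was not tested. In bulk RNA, a change in the number of cells of a type cannot be told apart from a change in RNA per cell.

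**Figure D2:**
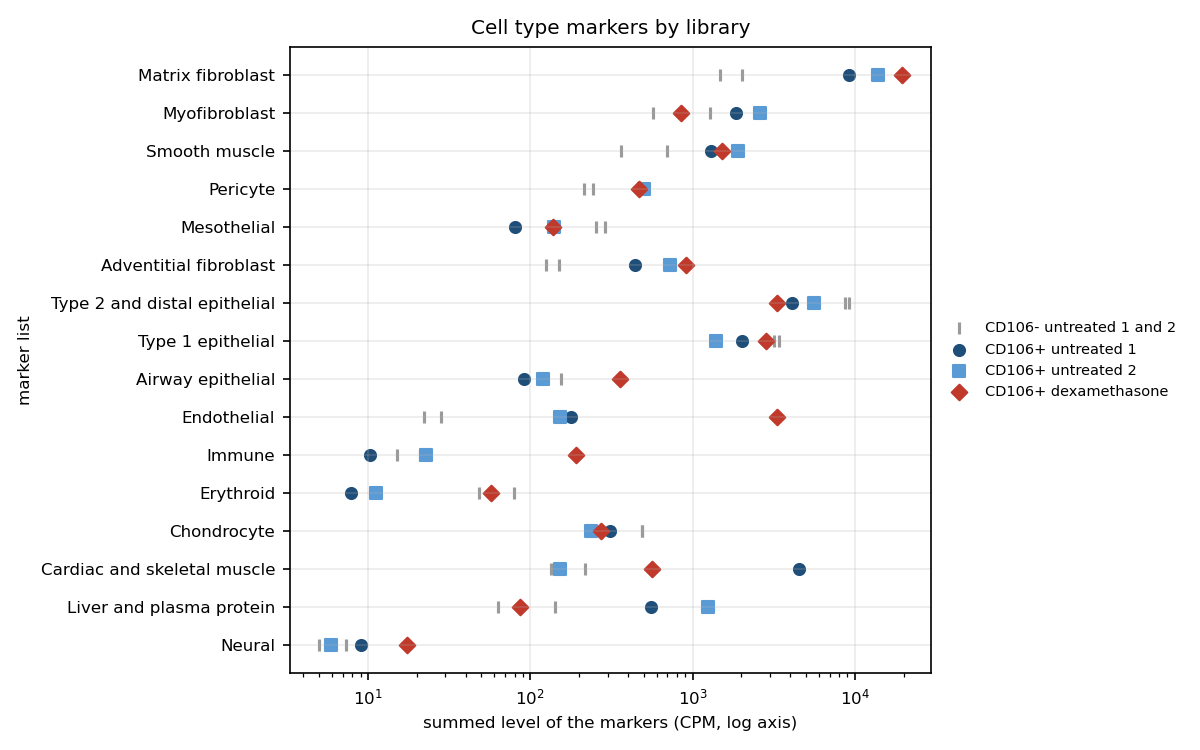
Summed level of each cell type marker list (CPM, log axis) in the treated CD106+ library (diamonds), the 2 untreated CD106+ libraries (circles and squares) and the 2 untreated CD106- libraries (bars). Endothelial markers sit at 3314 CPM in the treated library against 178 and 153 CPM, plasma protein genes at 86.5 CPM against 551 and 1237 CPM, and the cardiac list separates the 2 untreated libraries.

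Genes known to be induced by glucocorticoids stood higher in the treated library. The list of 40 targets was chosen with earlier results of these data known, so its counts are a description only. Of the 40, 38 reached the 5 CPM threshold, 23 were higher by 2-fold or more and 0 were lower. Over all genes 10.3% were higher and 11.9% lower. Against all 4 untreated libraries 21 of the targets were higher. The median log2 ratio over the 40 was 1.70. Sgk1, a kinase that raises epithelial sodium transport (chromosome 10, 21882184 to 21999903), stood at 259 CPM in the treated library and at 4.41 and 5.47 CPM in the untreated ones. This distance of 5.33 was the greatest of the list. Cdkn1a, the cell cycle inhibitor p21 (chromosome 17, 29090979 to 29100722), stood at 196 CPM against 7.02 and 11.9 CPM. Nfkbia, the inhibitor that holds NF-kB in the cytoplasm (chromosome 12, 55489409 to 55492647), stood at 126 CPM against 8.22 and 12.8 CPM. Ddit4, an inhibitor of mTOR signalling, stood at 57.5 CPM against 4.21 and 6.31 CPM. The treated library lay well above both untreated libraries for each of these, the last 3 at distances of 3.93, 3.21 and 3.00.

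Targets of high level stood higher too. Errfi1, a feedback inhibitor of the EGF receptor, stood at 1513 CPM against 295 and 272 CPM, and the MAP kinase phosphatase Dusp1 at 901 CPM against 198 and 236 CPM. Txnip, which binds thioredoxin and limits glucose uptake, stood at 369.5 CPM against 39.1 and 49.5 CPM, Glul, which encodes glutamine synthetase, at 289 CPM against 79.6 and 96.3 CPM, and the crosslinking enzyme gene Tgm2 at 286 CPM against 47.9 and 70.8 CPM. Errfi1 was higher in the CD106- libraries, at 559.9 and 624 CPM, and the treated library still exceeded those. Among transcription factors, Klf9 stood at 137 CPM against 17.04 and 17.4 CPM, Cebpd at 206 CPM against 30.8 and 37.3 CPM and Zbtb16 at 131 CPM against 26.3 and 48.4 CPM. The metallothioneins Mt1 and Mt2 stood at 12.9 and 34.0 CPM, with untreated levels of 3.61 and 5.75 CPM for Mt1 and 3.41 and 8.13 CPM for Mt2. Mt1 lost its place above the range when the CD106- libraries were counted, at a distance of 0.55, as did Fam107a at 0.86. Fam107a, an actin-binding gene, stood at 7.12 CPM against 0.401 and 0.841 CPM in the CD106+ libraries.

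The standard markers of receptor activity were less clear. Fkbp5, a chaperone partner of the receptor, stood at 49.6 CPM against 12.6 and 35.5 CPM. It exceeded both untreated libraries, by a distance of 0.47, and that distance was 1.89 without untreated library 2. Tsc22d3, which encodes GILZ, stood at 70.7 CPM against 32.9 and 35.7 CPM, just short of 2-fold at 0.96, and beyond it at 1.13 and 1.14 on TMM and DESeq2 scaling. Per1 stood at 71.0 CPM, between the untreated libraries at 36.7 and 99.8 CPM. Of the 40 targets, 33 lay above both untreated libraries by any amount, 3 below both and 4 between or level with them. The 3 below were Hif3a, a hypoxia factor subunit, at 695 CPM against 1195 and 1059 CPM, Anxa1, a mediator of glucocorticoid anti-inflammatory action, at 57.8 CPM against 85.2 and 82.1 CPM, and the cell cycle inhibitor Cdkn1c at 103 CPM against 144 and 287 CPM. The liver enzyme gene Tat had no count in any library.

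**Figure D3:**
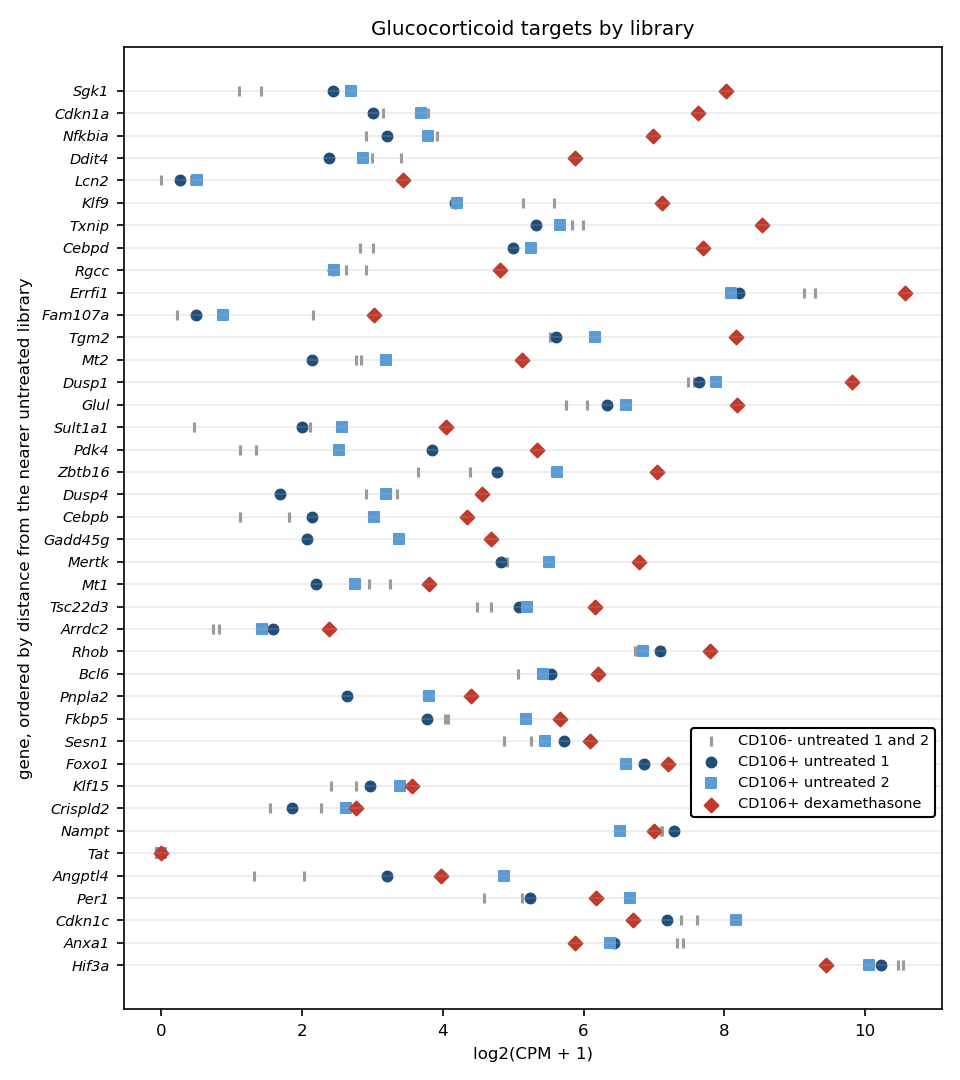
Level of each of the 40 glucocorticoid targets (log2 of CPM + 1) in the treated CD106+ library (diamonds), the 2 untreated CD106+ libraries (circles and squares) and the 2 untreated CD106- libraries (bars), ordered by distance from the nearer untreated CD106+ library. The diamonds lie right of all other symbols from Sgk1 down to Sesn1, with Fkbp5 close to the second untreated library and Hif3a, Anxa1 and Cdkn1c to the left.

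Promoter windows of these genes were searched for a glucocorticoid response element, since many targets of the receptor were higher together. The RefSeq window of GRCm38.p6 used here covers the 250 bases before the start site. The element searched holds ACA and TGT with 3 free bases between them, bounded by a G and a C that are each 1 free base away, and was read on both strands. It occurred in 0.387% of 32851 windows over all genes. Of the 40 targets, called or not, 34 were matched to 48 windows, of which 5 held it. The list was made of known targets, so its share describes the list and not the calls. Of the 23 higher targets, 19 were matched to 28 windows, of which 5 held the element, for 4 genes, namely Fam107a, Mt1, Sgk1 and Txnip. The 3 with the greatest distances are printed 5′ to 3′ on the strand of the gene, with the match in capitals. The match began 188 bases before a Sgk1 start (chr10:21993640-21993889, plus strand), 118 before a start of Fam107a (chr14:8309780-8310029, minus strand) and 172 before that of Txnip (chr3:96557707-96557956, plus strand). The Sgk1 window is 1 of 6 and the Fam107a window 1 of 3 that RefSeq gives for these genes, and both precede a start inside the gene's full span.
Sgk1: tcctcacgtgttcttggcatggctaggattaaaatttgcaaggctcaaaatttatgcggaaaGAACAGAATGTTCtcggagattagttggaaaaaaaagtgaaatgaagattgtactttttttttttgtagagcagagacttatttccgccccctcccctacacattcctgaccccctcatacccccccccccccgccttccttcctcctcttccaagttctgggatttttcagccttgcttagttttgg
Fam107a: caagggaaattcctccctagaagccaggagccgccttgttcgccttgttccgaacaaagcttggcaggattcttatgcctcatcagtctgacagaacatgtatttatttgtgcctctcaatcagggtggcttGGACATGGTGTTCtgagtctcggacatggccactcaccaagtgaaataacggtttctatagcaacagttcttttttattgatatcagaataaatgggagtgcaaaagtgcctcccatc
Txnip: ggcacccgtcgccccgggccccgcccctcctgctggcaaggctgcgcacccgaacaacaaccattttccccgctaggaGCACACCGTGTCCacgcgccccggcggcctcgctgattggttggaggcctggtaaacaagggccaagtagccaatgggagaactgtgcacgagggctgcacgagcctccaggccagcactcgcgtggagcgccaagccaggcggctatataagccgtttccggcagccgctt
The outer letters of the match read GAACA and TGTTC in Sgk1, GGACA and TGTTC in Fam107a and GCACA and TGTCC in Txnip. A match describes the letters only, and binding was not measured here.

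The receptor gene itself was lower than both untreated libraries by less than 2-fold. Nr3c1 stood at 213 CPM against 318 and 308 CPM, and at 221 and 284 CPM in the CD106- libraries. Hsd11b1, whose enzyme regenerates active glucocorticoid from its inert ketone, stood at 191 CPM against 11.6 and 50.7 CPM. It was the only gene called higher among 15 receptor and steroid handling genes. The receptor co-chaperones Fkbp4, at 43.0 CPM against 100.3 and 179.6 CPM, and Ptges3, at 43.5 CPM against 90.4 and 89.3 CPM, were lower. Ptges3 missed the 2-fold threshold under both other scalings, at -0.83 and -0.75. Of 19 clock genes 5 were higher (Bhlhe40, Cry1, Nfil3, Nr1d1 and Nr1d2) and 1 was lower (Hlf), and 2 were higher than all 4 untreated libraries. The repressor Nfil3 stood at 89.7 CPM against 10.2 and 18.9 CPM and Nr1d1, which encodes REV-ERB alpha, at 12.7 CPM against 3.01 and 3.50 CPM. The core activators Clock and Arntl stood at 213 and 6.07 CPM against 216 and 163 CPM and 4.41 and 4.77 CPM, and neither was called.

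Genes that NF-kB induces also stood higher, although glucocorticoids are known for restraining that pathway. Of 23 inflammatory genes, 12 were higher and 0 lower, with a median log2 ratio of 1.55 over the 23. Ptgs2, the inducible prostaglandin synthase COX-2 (chromosome 1, 150100031 to 150108234), stood at 176 CPM against 1.60 and 1.82 CPM. Cxcl2, a neutrophil chemokine, stood at 37.7 CPM with no count in any of the 4 untreated libraries, and was at least 152-fold higher than a floor of 3 counts over the untreated CD106+ libraries together. The chemokines Ccl2 and Cxcl10 stood at 51.2 and 39.3 CPM and were near 0 in the untreated libraries, at 0.201 and 0.561 CPM and 0 and 0.28 CPM. The NF-kB feedback gene Tnfaip3 stood at 183 CPM against 9.83 and 7.71 CPM, in the same direction as Nfkbia. The subunit genes were less displaced, with Rela at 39.6 CPM against 8.82 and 19.6 CPM and Nfkb1 at 61.7 CPM against 30.1 and 57.8 CPM. The cytokine gene Tnf was also higher, at 7.12 CPM with no count in any untreated library. Il1b and Il6 did not reach the 5 CPM threshold, at 4.22 and 2.11 CPM in the treated library. The chemokine Ccl11 lay below both untreated libraries at 41.2 CPM against 58.3 and 101 CPM.

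A canonical NF-kB site, the letters in capitals for Cxcl1 and Cxcl2, was read on both strands. It occurred in 0.0852% of all windows and in 3 of 11 windows of the 10 higher inflammatory genes that were matched. Of these genes, Nfkbia is on the glucocorticoid list as well. Those 3 windows are printed because their genes encode the chemokines and the inhibitor just described, again with the match in capitals. It began 29 bases before the Nfkbia start (chr12:55492648-55492897, minus strand), where it reads in the opposite sense, 71 before that of Cxcl1 (chr5:90890995-90891244, plus strand) and 97 before that of Cxcl2 (chr5:90903649-90903898, plus strand).
Nfkbia: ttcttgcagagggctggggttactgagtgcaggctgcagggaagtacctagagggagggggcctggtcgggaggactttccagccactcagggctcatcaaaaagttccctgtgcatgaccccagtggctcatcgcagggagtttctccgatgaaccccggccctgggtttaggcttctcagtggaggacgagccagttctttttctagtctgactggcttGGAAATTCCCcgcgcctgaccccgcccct
Cxcl1: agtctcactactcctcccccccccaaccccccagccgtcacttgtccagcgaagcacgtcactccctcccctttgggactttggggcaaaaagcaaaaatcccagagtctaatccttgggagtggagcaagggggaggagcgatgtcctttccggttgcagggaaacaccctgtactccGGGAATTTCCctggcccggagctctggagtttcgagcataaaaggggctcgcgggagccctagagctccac
Cxcl2: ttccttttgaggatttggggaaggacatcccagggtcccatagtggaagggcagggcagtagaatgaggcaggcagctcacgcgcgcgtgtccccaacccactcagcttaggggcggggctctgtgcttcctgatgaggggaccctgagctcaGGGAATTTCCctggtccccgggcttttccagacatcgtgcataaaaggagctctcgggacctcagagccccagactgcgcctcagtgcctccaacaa
Cxcl1 stood at 21.1 CPM in the treated library and at 1.20 and 0.421 CPM in the untreated ones.

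Immediate early genes, which respond within minutes to growth factors and to handling of cells, were mixed in size. Of 23, 11 were higher and 0 lower. Fosl1, an AP-1 subunit, stood at 24.9 CPM with no count in the untreated CD106+ libraries. Ier3 stood at 129.8 CPM against 6.42 and 8.13 CPM, Egr3 at 81.3 CPM against 9.83 and 7.29 CPM and the growth regulator Myc at 177 CPM against 28.1 and 25.7 CPM. Members without a call lay on either side. Fos lay between the untreated libraries, at 257 CPM against 231 and 417 CPM, and Egr1 below them, at 1041 CPM against 2065 and 1789 CPM. Jun and Junb lay above both by less than 2-fold, at 701 CPM against 601 and 478 CPM and 27.7 CPM against 5.01 and 14.2 CPM. The part of stimulation or handling in these levels was not tested. Of 15 heat shock genes 5 were higher (Hspa1a, Hspa1b, Hspb1, Hspb8 and Hsph1) and 0 lower. Hspa1a, the inducible HSP70, stood at 248 CPM against 35.2 and 18.9 CPM and Hspa1b at 111 CPM against 12.5 and 7.91 CPM, with fractional counts in all 3 libraries, so that the split between this near-identical pair is uncertain. The constitutive Hspa8 lay between the untreated libraries, at 975 CPM against 924 and 1218 CPM.

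Signalling genes of vessels were higher in the library that also held more endothelial transcripts. Of 13 Notch genes, 7 were higher and 1 was lower, with a median log2 ratio of 1.88. The ligands Dll1 and Dll4 stood at 14.0 and 20.0 CPM against 0.401 and 0.14 CPM and 1.20 and 1.40 CPM. The receptor Notch4, which is largely endothelial, stood at 38.5 CPM against 3.61 and 2.52 CPM, and the Notch target Hey1 at 135 CPM against 17.6 and 16.54 CPM. The receptor Notch2 was lower, at 210.0 CPM against 425 and 555 CPM. Of 19 vascular growth factor genes 5 were higher (Apln, Nrp2, Pdgfa, Pdgfb and Vegfc) and 1 was lower (Pdgfc). Pdgfb, a ligand that recruits pericytes, stood at 15.6 CPM against 0.401 and 1.96 CPM, and the lymphatic growth factor Vegfc at 26.1 CPM against 5.81 and 2.38 CPM. Figf, which encodes VEGF-D, and the ligand Angpt1 were not called, at 278 CPM against 187 and 332 CPM and 107 CPM against 93.4 and 98.7 CPM. A list of 12 genes of activated and vessel-type endothelium, chosen after seeing the values, had 11 higher. It included the adhesion receptors Selp and Sele, at 28.8 and 16.4 CPM with no count in any untreated library, the clotting factor Vwf at 89.2 CPM against 1.20 and 2.10 CPM, and Ace, the angiotensin-converting enzyme of lung capillaries, at 456 CPM against 5.61 and 7.57 CPM. The part of the endothelial transcripts in the Notch and vascular lists was not tested.

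Cell cycle genes stood lower. Of 19 mitosis genes, 17 were lower and 0 higher, with a median log2 ratio of -1.77, and 15 were lower than all 4 untreated libraries. Mki67, the proliferation marker, stood at 985 CPM against 3276 and 2215 CPM, and Top2a at 321 CPM against 1284 and 1027 CPM. The checkpoint kinase Bub1 stood at 30.1 CPM against 160.4 and 169 CPM, the kinase Aurkb at 13.2 CPM against 80.2 and 94.8 CPM and the spindle motor Kif11 at 67.8 CPM against 394 and 335 CPM. The treated library lay under both untreated libraries for each. Of 19 DNA replication genes, 11 were lower and 0 higher, with a median of -1.53. The ribonucleotide reductase Rrm2 stood at 24.3 CPM against 154 and 97.4 CPM, the helicase subunit Mcm6 at 41.2 CPM against 130.1 and 153 CPM and the chromatin remodeller Hells at 14.5 CPM against 75.8 and 58.2 CPM. Cyclin E1, Ccne1, lay between the untreated libraries at 7.91 CPM against 9.42 and 7.29 CPM.

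Growth signals exchanged between epithelium and mesenchyme were lower more often than higher. Of 25 hedgehog and FGF genes, 8 were lower and 1 was higher. Shh, the hedgehog ligand of the epithelium, stood at 26.1 CPM against 173 and 71.5 CPM. Its receptor and target Ptch1 stood at 127 CPM against 405 and 635 CPM and the effector Gli3 at 77.6 CPM against 209 and 232 CPM. Fgf9, a ligand of mesothelium and epithelium, stood at 1.58 CPM against 28.7 and 17.9 CPM, and Etv5, an FGF target that type 2 cells express, at 122 CPM against 562 and 548 CPM. The mesenchymal ligand Fgf10 lay just under the lower untreated library, at 80.5 CPM against 81.0 and 115 CPM. The higher gene was the FGF feedback inhibitor Spry4, at 165 CPM against 39.7 and 64.1 CPM.

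Of 27 Wnt genes, 7 were lower and 3 higher. The receptor Fzd7 stood at 74.1 CPM against 270.5 and 290.0 CPM, the agonist Rspo2 at 0.791 CPM against 8.22 and 8.27 CPM, and the endothelial receptor Fzd4 in the other direction, at 125 CPM against 28.3 and 34.5 CPM. The Wnt target Axin2 lay above both untreated libraries without reaching 2-fold, at 96.8 CPM against 53.3 and 74.2 CPM. Of 27 TGF-beta and BMP genes, 3 were higher and 4 lower, near the shares over all genes (10.3% and 11.9%). Id3, a BMP-responsive inhibitor of differentiation (chromosome 4, 136143822 to 136145392), stood at 424 CPM against 40.1 and 52.4 CPM. The ligand Tgfb1 stood at 34.0 CPM against 1.60 and 4.63 CPM. The ligand Tgfb2 was lower, at 98.1 CPM against 389 and 282 CPM, as was Bmp5, at 53.8 CPM against 185 and 250.1 CPM. In the IGF axis 2 of 12 genes were higher and 4 lower. Igfbp3, a binding protein, stood at 52.2 CPM against 3.61 and 3.92 CPM, and the growth factor Igf1 at 115 CPM against 427 and 474 CPM.

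**Figure D4:**
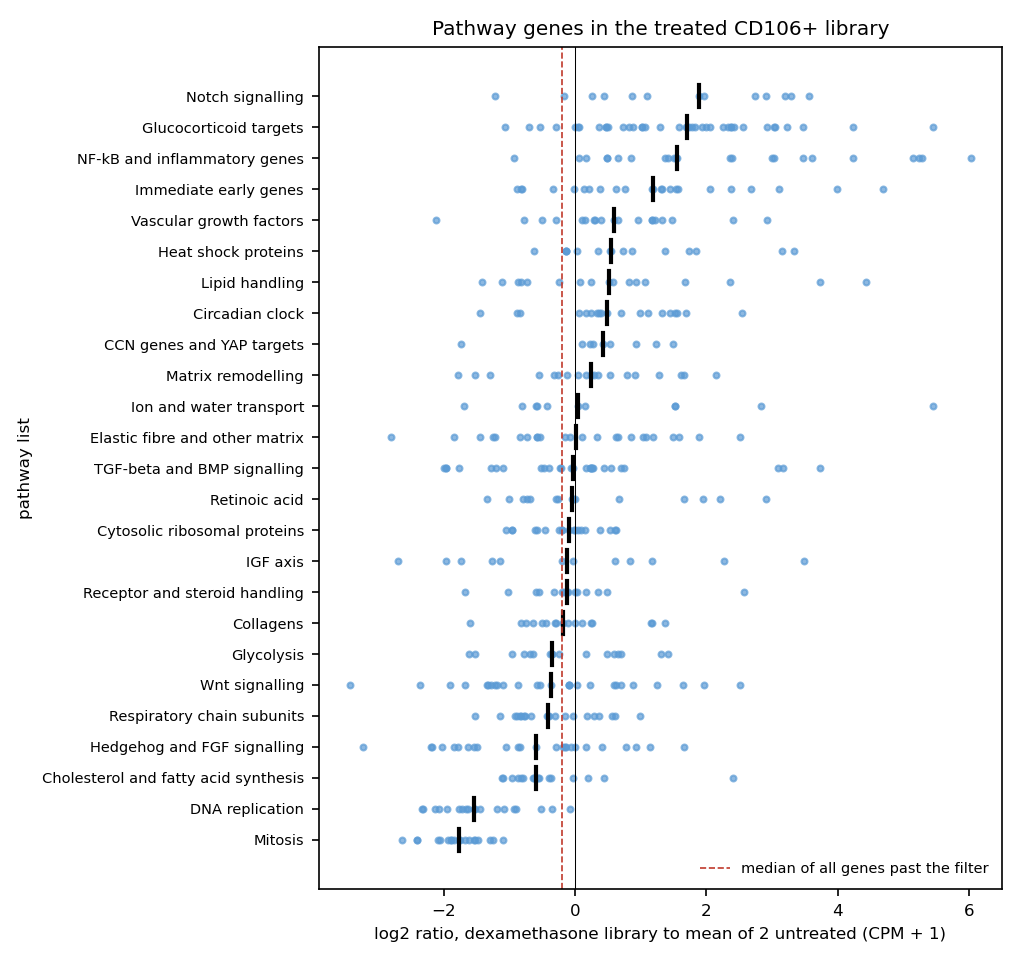
log2 ratio of the treated CD106+ library to the mean of the 2 untreated libraries (horizontal axis, CPM + 1) for every member of 25 pathway lists, with the list median as a black bar and the median of all genes past the filter (-0.21) as a dashed line. Notch, glucocorticoid, inflammatory and immediate early lists have medians of 1.88, 1.70, 1.55 and 1.19, while the mitosis and DNA replication lists sit at -1.77 and -1.53.

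Matrix genes were called in both directions at shares near those of all genes (10.3% and 11.9%), with 4 of 24 elastic fibre and other matrix genes higher (Eln, Fbln2, Fbln5 and Mfap5) and 3 lower (Efemp1, Fbn2 and Vcan). Eln, which encodes tropoelastin (chromosome 5, 134702595 to 134747368), stood at 1434 CPM against 171 and 329.8 CPM, higher than both untreated libraries and than the CD106- libraries at 52.5 and 95.9 CPM. Fbn2, a fibrillin of the fetal elastic fibre, stood at 135 CPM against 932 and 964 CPM, lower than both, while Fbn1, the fibrillin that persists after birth, stood at 775 CPM against 927 and 1393 CPM and was not called. Fbln5, which tethers elastin to cells, was higher at 91.8 CPM against 44.5 and 44.2 CPM. In mesenchyme Fbln5 fell by 0.96 on the log2 scale (edgeR adjusted p = 0.021, 0.16 without saline pool 2 and 0.053 to 0.062 without dexamethasone pool 1, 2 or 3). Fbln2 fell by 1.85 there (edgeR adjusted p = 0.042, 0.37 without saline pool 2 and 0.099 to 0.13 without dexamethasone pool 1, 2 or 4). The proteoglycan Vcan was lower at 646 CPM against 2277 and 2375 CPM, with fractional counts in all 3 libraries. Among 17 collagens, 2 were higher (Col13a1 and Col4a2) and 1 was lower (Col18a1). The fibrillar collagens of this list gave no call, as with Col1a1 at 759 CPM against 574 and 952 CPM, and the basement membrane collagen Col4a2 was higher, at 608 CPM against 259 and 281 CPM. Col18a1, another basement membrane collagen, was lower at 36.7 CPM against 75.4 and 150.1 CPM and missed 2-fold under both other scalings, at -0.97 and -0.96. The protease Adamts1 stood at 2803 CPM against 749.5 and 1025 CPM and the inhibitor Timp3 at 1516 CPM against 523 and 470.3 CPM, the 2 higher genes among 19 of matrix remodelling, with Adam12 and Mmp11 lower. Of 9 CCN and YAP target genes, 2 were higher, Ctgf at 104 CPM against 30.1 and 43.0 CPM and Wisp1, and Ajuba was lower.

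None of 19 cytosolic ribosomal protein genes and none of 21 respiratory chain genes was called in either direction. Over all genes 10.3% were higher and 11.9% lower, for comparison with each count in this paragraph. Rps6 stood at 482 CPM against 460.0 and 473 CPM and the ATP synthase gene Atp5b at 957 CPM against 1380.3 and 1893 CPM. Of 17 glycolysis genes 2 were higher (Hk2 and Pfkp) and 1 was lower (Tpi1), with the hexokinase Hk2 at 146 CPM against 61.0 and 46.7 CPM. Of 17 lipid handling genes 4 were higher (Abcg1, Cd36, Fabp4 and Fabp5) and 1 was lower (Plin3). The sterol exporter Abcg1 stood at 24.3 CPM against 0.201 and 0.14 CPM, and the scavenger receptor Cd36 at 271 CPM against 57.1 and 47.4 CPM. Plin2, which coats lipid droplets, lay above both untreated libraries without a call, at 114 CPM against 27.7 and 90.8 CPM. Of 16 genes of cholesterol and fatty acid synthesis, Scd1 was higher and Scd2 lower, and both had fractional counts in all 3 libraries. Of 11 ion and water transport genes 3 were higher and 1 was lower. Besides Sgk1 the higher ones were the water channel Aqp1, at 97.6 CPM against 18.8 and 6.73 CPM, and Scnn1a. Scnn1a, the alpha subunit of the epithelial sodium channel, stood at 63.3 CPM against 17.2 and 25.4 CPM. Against all 4 untreated libraries its distance was 0.50, short of 2-fold. The chloride channel Cftr was lower at 32.2 CPM against 138 and 75.1 CPM. Of 15 retinoic acid genes 2 were higher and 0 lower. Cyp26b1, which degrades retinoic acid, stood at 20.0 CPM against 0.802 and 2.80 CPM, and the reductase Dhrs3 at 45.6 CPM against 10.6 and 16.8 CPM.

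The greatest distances upwards, among genes at 20 CPM or more in the treated library, belonged mostly to genes outside the glucocorticoid list. Cyp1a1, the oxidase induced by the aryl hydrocarbon receptor (chromosome 9, 57687928 to 57703824), stood at 139.6 CPM against 0 and 0.14 CPM. This was 529 counts against 1 over both untreated libraries, a ratio of 1692 with a 95% counting interval of 302 to 66939. Slc7a11, the cystine importer of the oxidative stress response (chromosome 3, 50364936 to 50499087), stood at 144 CPM against 0 and 0.561 CPM. Next came Ptgs2 and Ace, then Flt1, Sema7a, Slfn5 and Neurl3 at distances of 5.58, 5.52, 5.46 and 5.41, followed by Sgk1 and Cxcl2. The club cell secretory gene Scgb1a1 stood at 210.3 CPM against 4.41 and 4.77 CPM, and 0 of the other 11 airway epithelial markers was called. The oxidised LDL receptor gene Olr1 stood at 35.6 CPM with no count in any untreated library, at least 144-fold higher than the floor of 3 counts. In lists chosen after seeing these values, 3 of 6 aryl hydrocarbon receptor targets and 3 of 7 oxidative stress genes were higher. Tiparp, a feedback gene of that receptor, stood at 353 CPM against 71.8 and 55.6 CPM, and haem oxygenase, Hmox1, at 142 CPM against 9.22 and 18.6 CPM. Nqo1, which both pathways induce, was not called, at 5.28 CPM against 4.61 and 4.21 CPM. The xenobiotic response element TNGCGTG was in 0 of 3 windows of the higher aryl hydrocarbon receptor targets and in 4.1% of all windows, and a heat shock element of 3 alternating TTC and GAA units, 2 free bases apart, in those of 0 of the 5 higher heat shock genes and in 0.466% of all.

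The greatest distances downwards after Afp and Alb were those of Dcx, a microtubule-binding gene of migrating neurons, with no count in the treated library and 35.9 and 30.6 CPM in the untreated, and Pcsk6, a proprotein convertase, at 0.264 CPM against 36.1 and 32.1 CPM. Apob followed, at 1.06 CPM against 52.5 and 66.9 CPM. Cldn6, a tight junction gene of fetal epithelium, stood at 10.8 CPM against 206 and 224 CPM, and at 559 and 364 CPM in the CD106- libraries. The kinetochore gene Spc25 stood at 2.37 CPM against 56.9 and 59.6 CPM and the condensin gene Ncapg at 9.62 CPM against 149.8 and 119 CPM, the latter with fractional counts in all 3 libraries. Sema4f, Sel1l3, Mpzl2 and 2700099C18Rik completed the 12, at distances of -4.18, -3.84, -3.62 and -3.63. The plasma protein, epithelial and mitotic genes among these 12 belong to groups already described.

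In the sorted mesenchyme, dexamethasone was tested in replicated pools with their own saline controls. Of 11356 genes tested there, 222 (1.95%) rose and 84 (0.74%) fell at an edgeR adjusted p under 0.05. The pools differ in sex between groups, with the Y-linked Ddx3y at a log2 fold change of 7.88, and 12 of the raised and 5 of the lowered genes lie on X or Y. Of the 222 raised genes, 59 were also higher in the treated CD106+ library. They made 28.1% of the 210 raised genes past the 5 CPM filter here, where 7.91% of the 10435 genes in both comparisons were higher. They also made 7.15% of the 825 higher genes tested in both, where 1.95% of all genes tested in mesenchyme rose. Another 7 were lower and 144 lay within 2-fold of the untreated range. Of the 84 lowered genes, 14 were lower here too and 7 were higher. The 14 made 20% of the 70 lowered genes past the filter here, where 11% of genes in both comparisons were lower. They also made 1.22% of the 1147 lower genes tested in both, where 0.74% of all genes tested in mesenchyme fell. The median log2 ratio here was 0.63 over the raised genes past the filter and -0.13 over the lowered ones, beside -0.21 over all genes. The lowered set as a whole thus did not stand below all genes here. Leaving out 1 mesenchyme pool took the 14 to between 8 (without saline pool 2) and 26 (without dexamethasone pool 3), with 22 without saline pool 1 and 9 without dexamethasone pool 1 or 4. The 59 and 14 became 52 and 9 against all 4 untreated libraries.

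By role, 12 glucocorticoid targets both rose in mesenchyme and were higher in the CD106+ library. They were Cdkn1a, Ddit4, Dusp1, Errfi1, Fam107a, Glul, Nfkbia, Pdk4, Sult1a1, Tgm2, Txnip and Zbtb16. A further 8 rose in mesenchyme without a call here, namely Crispld2, Fkbp5, Klf15, Nampt, Pnpla2, Rhob, Sesn1 and Tsc22d3. In the other direction, 8 were higher here and tested in mesenchyme without passing, among them Sgk1 with a log2 fold change of 1.50 (SE 0.44, edgeR adjusted p = 0.079) and Klf9 with 1.02 (SE 0.31, edgeR adjusted p = 0.1). The difference between the 2 settings was not tested. Of the 20 targets that rose, 12 kept the call whichever pool was left out, and 8 lost it. Without saline pool 1 the edgeR adjusted p was 0.18 for Ddit4, 0.12 for Dusp1, 0.071 for Nfkbia and 0.14 for Rhob. Without saline pool 2 it was 0.083 for Crispld2, 0.079 for Ddit4, 0.11 for Dusp1, 0.20 for Pnpla2, 0.18 for Sesn1 and 0.14 for Txnip. Ddit4, Dusp1, Pnpla2 and Sesn1 also lost the call without dexamethasone pool 1 or 4. Outside the list, the binding protein Igfbp3 rose in mesenchyme from 40.8 ± 6.95 (SD, n = 2) to 173 ± 59.7 (SD, n = 4) TMM-scaled CPM, a log2 fold change of 2.09 (SE 0.33, edgeR adjusted p = 0.0016), and it was higher here as stated above. Arhgef3 rose from 15.3 ± 0.139 (SD, n = 2) to 106 ± 36.4 (SD, n = 4) TMM-scaled CPM, a log2 fold change of 2.79 with an edgeR adjusted p = 2.8e-04, and stood here at 118 CPM against 10.6 and 12.8 CPM. The kinase gene Map3k6 and the matrix gene Spon1 rose by 2.22 and 1.24 on the log2 scale and stood here at 45.9 CPM against 3.81 and 3.64 CPM and at 386 CPM against 42.9 and 45.1 CPM. These 4 calls held whichever mesenchyme pool was left out. Tiparp rose there by 2.18 and the AP-1 subunit Fosl2 by 2.43, and both were higher here.

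Among lowered genes, Ptch1 fell in mesenchyme by 1.18 on the log2 scale (edgeR adjusted p = 0.0081, and 0.16 without saline pool 2), and it was lower here at a distance of -1.67. Scara3, a scavenger receptor family gene, fell by 1.91 there (edgeR adjusted p = 0.014, 0.24 without saline pool 2 and 0.054 without dexamethasone pool 1) and stood here at 2.11 CPM against 28.7 and 32.4 CPM. The growth factor Fgf18 fell by 2.72 (edgeR adjusted p = 0.0022, and 0.12 without saline pool 2) and stood here at 7.91 CPM against 22.9 and 36.3 CPM. Egr1 fell by 2.04 there and lay below both untreated libraries here by less than 2-fold. Id3 and Olr1 went opposite ways, higher in the CD106+ library and lower in mesenchyme, by 1.54 and 4.87 on the log2 scale. The mesenchyme call of Id3 was lost without dexamethasone pool 1 or either saline pool (edgeR adjusted p = 0.058 to 0.10), and that of Olr1 without saline pool 2 (edgeR adjusted p = 0.37). Of the inflammatory genes that were higher here, 3 were tested in mesenchyme, and Nfkbia alone passed there. Of the 17 mitosis genes lower here, Mki67 fell in mesenchyme, by 1.00 (edgeR adjusted p = 0.025, 0.22 without saline pool 2 and 0.068 to 0.094 without dexamethasone pool 1, 2 or 4). Among Notch genes, Heyl fell by 1.21 there (edgeR adjusted p = 0.004, and 0.082 without saline pool 1). Jag1 fell by 1.71 (edgeR adjusted p = 0.015, 0.19 without saline pool 1 and 0.057 without dexamethasone pool 1), and both lay above both untreated CD106+ libraries by less than 2-fold. Of the 11 higher endothelial markers, 8 were tested in mesenchyme, with edgeR adjusted p of 0.308 to 0.983, and the list's summed level there was 98.2 to 250 CPM in the 6 pools.

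**Figure D5:**
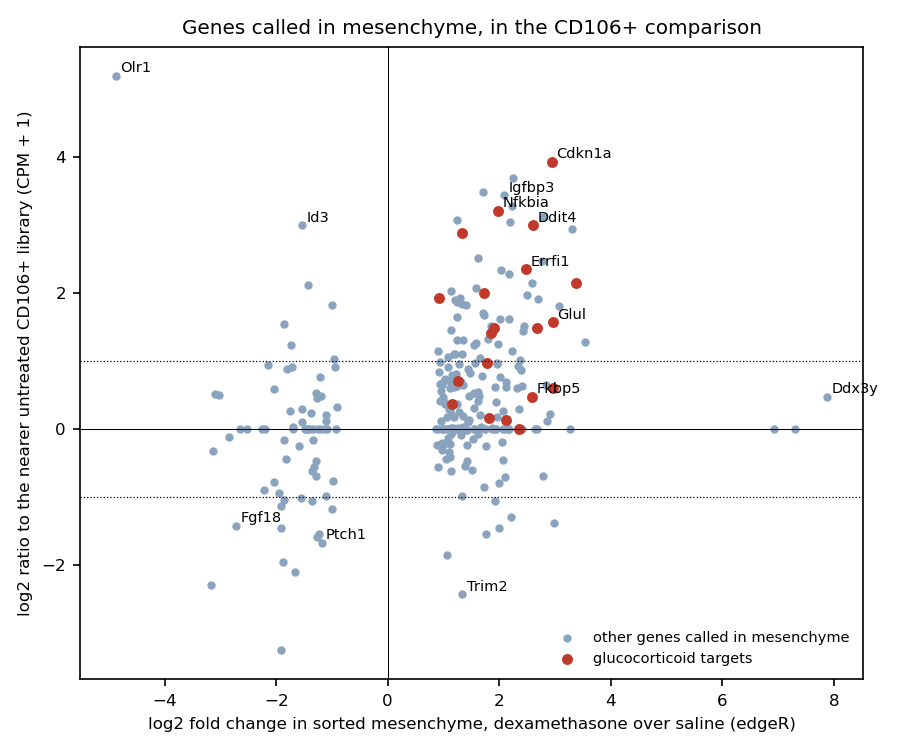
Each point is 1 of 280 genes called in sorted mesenchyme (edgeR adjusted p under 0.05) that reached 5 CPM in the CD106+ comparison. The mesenchyme pools differ in sex between groups, and the points include sex-linked genes such as Ddx3y. The horizontal axis gives the mesenchyme log2 fold change, dexamethasone over saline, by edgeR. The vertical axis gives the distance of the treated CD106+ library from the nearer untreated library. Dotted lines mark 2-fold, red points are glucocorticoid targets, and Olr1 and Id3 lie in the opposite corner from Cdkn1a and Igfbp3.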

How the data were processed

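The bulk RNA tables hold expected counts for 24371 genes, which the authors deposited, and 4.74% to 8.91% of the values in a library are not whole numbers (tolerance 1e-06). The submitters' processing notes name Trim Galore, TopHat2, Bowtie2, Partek and mm10 among their tools and builds. How reads were assigned to genes, and whether strand counted, is not stated in the labels or tables. The column of the treated CD106+ library carries a code that no label repeats, and it was assigned because the description of only 1 sample names that table.

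CPM was computed from each library's total, with a pseudocount of 1 CPM. For mesenchyme, rounded counts were tested with edgeR 4.0.16 (quasi-likelihood, TMM, filterByExpr, Benjamini-Hochberg at 0.05) in R 4.3.3, with DESeq2 1.42.0 as an alternative, and the fits were tested on simulated data. Intervals and floors cover counting error only. Gene positions came from RefSeq (GRCm38.p6) for 23065 genes by symbol.

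The 41 gene lists and the named genes were chosen with earlier results of these data known, and 3 further lists were added after seeing these values. Genes were named by rule: the 12 greatest distances each way at 20 CPM or more, up to 4 per pathway list, up to 3 per cell type list, up to 8 that mesenchyme shared in each direction and up to 4 opposite, plus receptor, sorting and sex genes. Other members are named as examples, chosen after their values were seen. Alternatives covered scaling, pseudocount, filter, each library left out, the replicate block and both CD106 fractions as background. Replicate numbers of mesenchyme pools were shared by 2 pairs. Chromatin and single-cell files were not used here.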

Additional observations from a re-analysis of the deposited data

Results flagged for a closer look

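Cyp26b1, which degrades retinoic acid, stood apart in 1 of the 4 dexamethasone mesenchyme pools, at 15.97 TMM-scaled CPM where the others had 27.4, 25.8 and 25.5. Chance sets a pool this far apart in about 1 of 20 groups.

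Genes that the treated CD106+ library and the mesenchyme fit set in opposite directions were also picked out, and the difference between the settings was not tested. Higher in the CD106+ library and lowered in mesenchyme were Olr1 at a distance of 5.19, Id3 at 2.99, Sema5b at 2.11, Itga4 at 1.83, Fbln2 at 1.55, Plk2 at 1.24 and Fbln5 at 1.03. Lower in the CD106+ library and raised in mesenchyme were Trim2 at -2.43, Megf10 at -1.86, Snx24 at -1.54, Pcdh20 at -1.46, Elovl2 at -1.38, Fam134b at -1.29 and Rcc2 at -1.07. The mesenchyme calls of the first 4 in each direction, and of Fbln2 and Fbln5, were each lost in at least 1 fit that left out a pool. The edgeR adjusted p was 0.091 for Trim2 without saline pool 1 and 0.081 for Sema5b without saline pool 2.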

How the results depend on the processing

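The count of genes higher than both untreated CD106+ libraries, 1179, became 1845 with no filter on low values and 699 with a filter at 20 CPM. The count of lower genes, 1368, became 896 with the 20 CPM filter and 885 with a pseudocount of 5 CPM. Leaving out an untreated library gave 1439 to 1924 higher and 1956 to 2480 lower genes, the extremes without untreated library 2 and 1, so both counts rest on the pair. Higher glucocorticoid targets numbered 18 to 26 under every setting run. The 59 raised and 14 lowered mesenchyme genes that went the same way here became 52 and 9 against both CD106 fractions, 41 and 7 with the replicate block, 83 and 27 by DESeq2, 92 and 40 with no filter on low mesenchyme counts, and 42 to 62 and 8 to 26 without 1 pool.

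No paired analysis was possible because the CD106+ comparison has 1 treated library and no test. In mesenchyme the shared numbers made 2 pairs whose deviations correlated at -0.05 and 0.05. With 2 saline pools, the correlations of a dexamethasone pool with each are equal and opposite. They therefore cannot tell whether pools of the same number were paired. The fit with the replicate block called 114 raised and 40 lowered genes. No filter on low counts gave 369 and 229, and the DESeq2 Wald test 355 and 132. Leaving out 1 pool gave 141 to 228 raised and 38 to 107 lowered genes, with 141 and 38 without dexamethasone pool 1, 142 and 44 without dexamethasone pool 4, 144 and 49 without saline pool 1 and 144 and 64 without saline pool 2. The lone saline pool in the last 2 fits is assumed to vary like the dexamethasone pools. Among results on single genes and lists, 2785 values kept their direction and side of the threshold, 416 moved by more than the spread, 78 no longer passed, 20 newly passed, and none of the values past its threshold changed sign.

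The median of the collagen list was -0.14 over the members that passed the filter, 0.00 with TMM and 0.06 with DESeq2 size factors, and that of the ribosomal list was -0.09, 0.06 and 0.11. Neither has a direction here. The medians of the receptor, retinoic acid, smooth muscle and TGF-beta lists likewise changed sign under at least 1 of these scalings. With 1 treated library, the treatment and the preparation of that library cannot be told apart. In it, 3 counts are worth 0.791 CPM, so differences among genes near that level were not detectable at this depth.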
